A study of Homo sapiens with 19 samples.

Results

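The core spliceosome genes described here are 49 listed human genes that encode protein subunits of the machinery that removes introns from pre-mRNA. They were chosen by name and role, and no measured value enters the rule, although the list was drawn up with earlier results of these data known. SF3B5, a small SF3b subunit, has no annotated intron and gives no spliced reads. This left 48 genes with 838 annotated introns that held reads, out of 22889 genes with such reads in the series. Among their exons were 80 cassette exons (exons that can be skipped) in 29 genes, of 37509 in all, and 8 pairs of mutually exclusive exons, of 3448 in all. The study used Cas13d, an RNA-guided nuclease that cuts RNA, to lower isoforms of RBFOX2, a splicing regulator, and counted reads across splice junctions in 19 RNA-seq libraries made after removal of ribosomal RNA. HUES66, a line of human embryonic stem cells, received 1 µg/ml doxycycline in 14 libraries: 3 controls of WT genotype, 3 with total RBFOX2 knockdown, 4 with knockdown of the RBFOX2 isoform named N-short and 4 with knockdown of the isoform named N-long, at 24, 48 or 96 hr. These 14 formed 4 sets. The 24 hr replicate 1 set held no library labelled as control, the 24 hr replicate 2 set held no total knockdown, and the 48 hr and 96 hr sets each held 1 library of every kind. The other 5 libraries had no doxycycline and no knockdown: WT HUES66, WT HEK293 (a human embryonic kidney line), and A375 (a human melanoma line) as total RNA, nuclear RNA and cytoplasmic RNA. The library name of WT HUES66 shares its prefix with the 24 hr replicate 1 set and holds the word empty, as the names of the controls do, so it may be the control of that set. It was joined to the controls only as an alternative, under which PRPF8 and SNRNP200 again passed in total knockdown. The labels do not say whether libraries came from separate cultures, so p-values measure only the spread between these samples, which may be technical. The labels give neither the promoter that drives Cas13d nor whether a knockdown line was a single clone.

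The spliceosome is built anew on each intron from small nuclear ribonucleoproteins (snRNPs), each a small RNA with its proteins. U1 snRNP binds the 5′ splice site, SF1 and the U2AF heterodimer bind the branch point and 3′ splice site, and U2 snRNP then takes over the branch point. The U4/U6.U5 tri-snRNP joins next, the Prp19 complex and DEAH-box helicases drive the rearrangements to the catalytic state and its disassembly, and a ring of Sm proteins sits on the U1, U2, U4 and U5 RNAs. Several genes of splicing proteins carry exons whose inclusion places a stop codon early in the message, which directs the transcript to nonsense-mediated decay. Such exons let a gene's output be set by its own splicing.

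Exons of LUC7L3, SNRNP70 and SNRPA1 were among those whose inclusion differed most between library sets, cell lines or fractions, and an SF3B3 exon was the nearest to passing in total knockdown. Their sequences are given in the sense of the gene, with GENCODE coordinates in GRCh38 (hg38), up to the in-frame stop codon where the exon brings one, which is in capitals. The LUC7L3 exon of 193 nt (chr17:50737287-50737360 printed, plus strand), the SNRNP70 exon of 72 nt (chr19:49102114-49102139, plus strand) and the SF3B3 exon of 29 nt (chr16:70550650-70550660, plus strand) are annotated only in transcripts marked for nonsense-mediated decay. In LUC7L3 the exon of 66 nt (chr17:50751297-50751321, plus strand) ends the reading frame of a transcript annotated as coding. The SNRPA1 exon of 80 nt (chr15:101286214-101286293, minus strand) is an ordinary coding exon whose length is not a multiple of 3, and it is shown whole.
LUC7L3 193 nt exon: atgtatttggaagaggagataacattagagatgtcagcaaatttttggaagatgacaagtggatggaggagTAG
LUC7L3 66 nt exon: cgttggtgttgtgagcggcccaTGA
SNRNP70 72 nt exon: ccaccacgcagctggcttgcagcTGA
SF3B3 29 nt exon: gtggctggTGA
SNRPA1 80 nt exon: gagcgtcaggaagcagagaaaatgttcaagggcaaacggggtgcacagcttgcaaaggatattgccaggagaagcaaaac
The bases up to and including the stop codon are 74 of 193 and 25 of 66 in the LUC7L3 exons, 26 of 72 in SNRNP70 and 11 of 29 in SF3B3.

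The doxycycline libraries held 9622841 to 14625040 junction reads, and in all 19 libraries 96.66% to 98.32% of the reads lay on annotated introns. Values per gene are reads on the gene's annotated introns per 1000000 reads of the library that fell on introns of a single gene (CPM). Libraries of a set varied together: the median correlation of their deviations from the group means was 0.555 over 18 pairs within a set and -0.186 over 55 pairs from different sets. Subtracting group means by itself pushes correlations between sets towards negative values, so the second median does not show that sets opposed each other. RBFOX2 itself had 122, 125 and 129 CPM in the controls, 49.3, 77.7 and 80.6 in total knockdown, 74.3 to 89.8 in N-long knockdown and 110 to 124 in N-short knockdown. Its log2 change against control was -0.82 in total knockdown (edgeR quasi-likelihood test, adjusted p 7.957e-09), -0.57 in N-long knockdown (adjusted p 2.848e-05) and -0.06 in the libraries labelled N-short knockdown (adjusted p 0.9982). The sum over the gene does not separate the isoforms, so it does not check the N-short label. Markers of differentiated cells that a stem cell culture could hold summed to at most 2.63 CPM in every HUES66 library, while pluripotency markers summed to at least 3445 CPM. Melanoma or melanocyte markers summed to 315 to 887 CPM in the A375 libraries against at most 118 elsewhere, but the listed genes did not act alike. In A375 total RNA most of the reads were on AXL (4128), followed by SOX10 (844), MITF (328) and S100B (127). MLANA and TYR had 0 reads there, DCT 3 and PMEL 4, while PMEL had 1337 in WT HUES66.

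U2AF1, which encodes the small U2AF subunit that reads the AG at the 3′ splice site, could not be measured reliably. The 3 A375 files held 0, 1 and 2 reads on it, while the other 16 libraries had 88.9 to 124 CPM. Even there the reads came from part of the gene: 5 of the 7 introns of its main transcript carried under 10% of the reads of the highest intron. The gene has a near-identical annotated copy on chromosome 21, U2AF1L5, which held 0 reads in the 3 A375 libraries and 0 or 1 in each other library. Whether reads that match both copies were lost was not tested. U2AF1 stays in the HUES66 tests below with this limit and is left out of the counts that involve A375, which therefore cover 47 genes. Its mutually exclusive exons could not be compared either, since over 16 libraries the junctions of the upstream exon held 7256 and 7455 reads and those of the downstream exon 6 and 3, and a further junction that joins these exons to each other held 208.

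Levels between genes were compared per intron, as the median CPM over the introns of the main transcript, which removes the advantage of genes with many introns. The 7 genes of the Sm ring were the 7 highest of the 48 in the HUES66 controls. SNRPF stood first with 163 ± 15.3 CPM per intron (mean ± SD, n = 3), followed by SNRPG with 69.8 ± 4.33 and SNRPD1 with 68.3 ± 1.61. SNRPE had 53.9 ± 2.99 and SNRPD2 50.4 ± 12.1. SNRPF stood clear of SNRPG, and SNRPD1 of SNRPE, by more than their SDs, while SNRPG and SNRPD1, and SNRPE and SNRPD2, did not differ beyond their spread. Lowest among the genes measured reliably were the DEAH-box helicases DHX16, DHX38 and DHX8. A further DEAH-box helicase, DHX15, is grouped with U2 snRNP and was not among the lowest. DHX16, which acts at activation, had 3.34 ± 0.434, and DHX38, which acts before the second catalytic step, had 4.49 ± 0.654. DHX8, which releases the spliced mRNA, had 4.84 ± 0.524. CRNKL1, a scaffold of the activated spliceosome, followed with 5.31 ± 0.313. DHX16 stood below DHX38 by more than the sum of their SDs, while DHX38 and DHX8, and DHX8 and CRNKL1, did not differ beyond the spread. U2AF1 had 0.032 on this scale because most of its introns had almost no reads. Several Sm genes have processed pseudogenes, to which reads across their junctions can also align, and how such reads were treated is not given in the sources used here.

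**Figure D1:**
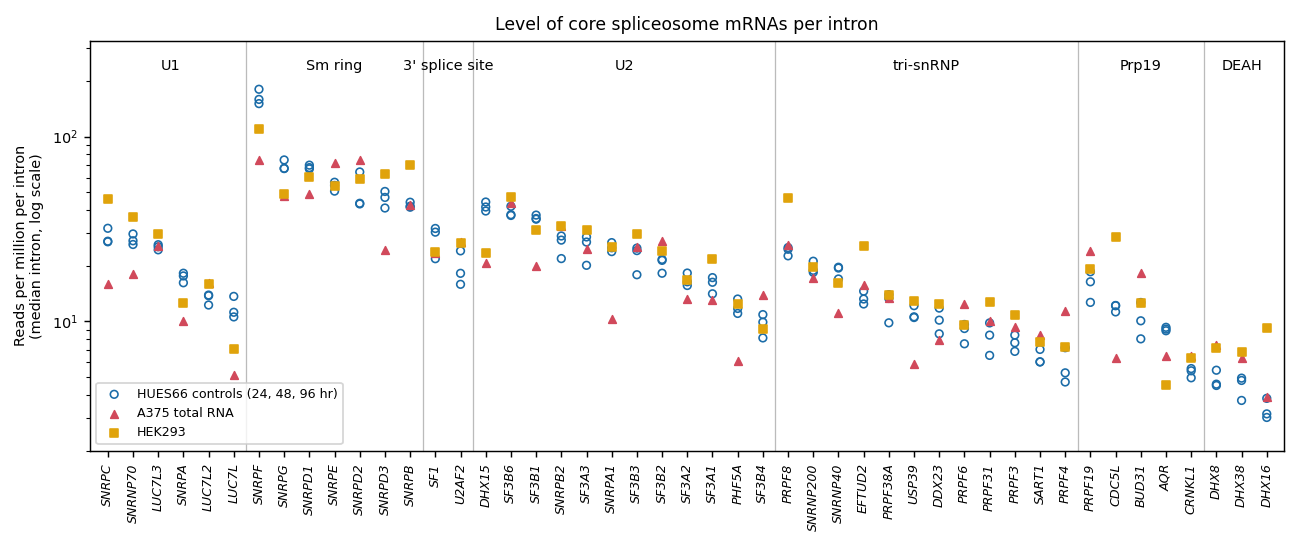
Level per intron (CPM, median over the introns of the main transcript, log scale) of 47 genes, grouped by complex and ordered by the HUES66 control mean, with U2AF1 left out. Open circles are the 3 HUES66 control libraries, triangles A375 total RNA and squares HEK293. The Sm ring lies highest, with SNRPF at 163 in the controls, and DHX16 lowest, at 3.34.

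The first comparison asked whether RBFOX2 knockdown changed the amount of core spliceosome mRNA. In total knockdown 2 of 48 genes passed the test, and both fell: PRPF8 and SNRNP200, which encode the large scaffold protein at the heart of the catalytic centre and the helicase that unwinds U4 from U6, both subunits of U5 snRNP. Of all 13822 genes tested 1.16% were called lower and 2.26% in either direction. PRPF8 had 1059, 955 and 1055 CPM in the controls at 24, 48 and 96 hr and 927, 870 and 952 CPM in total knockdown. The knockdown library was the lowest of its set in all 3 sets that hold one, and the groups did not overlap, though the lowest control and the highest knockdown library were close. PRPF8 fell by 0.16 on the log2 scale (SE 0.03, adjusted p 0.001049, edgeR) and was lower in 2 of 2 sets that hold both kinds of library. SNRNP200 had 891, 797 and 922 CPM in the controls and 814, 750 and 849 CPM in total knockdown. It fell by 0.12 (SE 0.03, adjusted p 0.04341), was lower in 2 of 2 sets, and its groups overlapped. With a term for time in place of the library set neither gene passed (adjusted p 0.0541 for PRPF8 and 0.277 for SNRNP200). SNRNP200 was also lost when any of 4 libraries was left out: total knockdown at 24 hr, control at 24 hr, total knockdown at 48 hr or control at 96 hr (adjusted p 0.0827, 0.0969, 0.126 and 0.366).

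Among the other 46 genes, 5 more had an unadjusted p under 0.05 in total knockdown, led by SNRPA1, a U2 snRNP protein, with a log2 difference of 0.13 (SE 0.04, adjusted p 0.109). That makes 7 of the 48, beside 1816 of all 13822 genes tested, a similar share. SNRPA1 passed only without the 96 hr total knockdown library (adjusted p 0.0169). EFTUD2, the GTPase that sits beside PRPF8 in U5 snRNP, differed by -0.10 and did not pass. The median log2 difference over the 48 genes was 0.000631. The isoform knockdowns called 0 of the 48 genes with edgeR, and 0 with DESeq2. The backgrounds over all genes were 0.0145% for N-short knockdown, 0.0217% for N-long knockdown and 0.0145% for N-long against N-short. Unadjusted p fell under 0.05 for 1, 1 and 2 of the 48 in these comparisons, and for 554, 612 and 715 of all 13822 genes. The smallest p values belonged to U2AF1 (-0.12), PRPF8 (-0.04) and SNRNP70 (0.06) in N-short knockdown, each with an adjusted p of 0.9982. In N-long knockdown they belonged to SNRPB (0.07), BUD31 (0.11) and USP39 (-0.08), each with an adjusted p of 0.9996. Between the isoform knockdowns they belonged to SF3B1 (0.05), SNRPG (0.07) and U2AF1 (0.08), with adjusted p of 0.9383 for SF3B1 and SNRPG and 0.9685 for U2AF1. Of 81 other tested genes of the pathway, 1 fell in total knockdown, CLNS1A (log2 -0.20, SE 0.05, adjusted p 0.006499), which encodes the chaperone pICln that presents Sm proteins for ring assembly, and 0 passed in the isoform comparisons, where 4 to 5 had an unadjusted p under 0.05.

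Many more genes passed between library sets than between knockdowns. Between the 48 hr and 96 hr sets, with 4 libraries each, 36 of 48 genes were higher at 96 hr and 3 lower (edgeR, adjusted p under 0.05). The share called was 81.2% (75.0% higher and 6.25% lower), against 59.7% of all 13617 genes (29.5% higher and 30.1% lower), and the median log2 difference was 0.212, against -0.00906 over all genes. All 12 tri-snRNP genes and the DEAH-box helicases DHX8, DHX16 and DHX38 were higher at 96 hr. The Sm ring had 6 of 7 genes higher and 1 lower, U2 snRNP 7 of 12 higher, the Prp19 group 3 of 5 higher, 3′ splice site recognition 2 of 3 higher, and U1 snRNP 3 of 6 higher and 2 lower. The 9 genes that did not pass were SNRNP70, U2AF1, SF3A2, SF3B1, SF3B6, PHF5A, SNRPA1, AQR and CDC5L. The 48 genes together held 1.08% to 1.10% of gene reads at 48 hr and 1.20% to 1.23% at 96 hr. They held 1.21% to 1.25% in the replicate 1 set of 24 hr, 1.20% to 1.22% in the replicate 2 set and 1.23% in WT HUES66. The 48 hr libraries were thus the lowest of the HUES66 libraries, and the 96 hr libraries were near those of 24 hr.

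U2AF2 encodes the large U2AF subunit, which binds the polypyrimidine tract. It had 165, 174, 185 and 185 CPM in the 48 hr libraries and 285, 292, 296 and 298 CPM in the 96 hr libraries. The sets did not overlap, and the log2 difference of 0.79 (SE 0.03, adjusted p 2.191e-16) was the largest among the 48 genes. PRPF19, the ubiquitin ligase that gives the Prp19 complex its name, had 183 to 208 CPM at 48 hr and 297 to 314 CPM at 96 hr. It too was separated, at 0.73 (SE 0.03, adjusted p 3.982e-16). SF3A1 and SF3A3, subunits of the U2 snRNP part that contacts the branch point region, followed with 0.51 (adjusted p 1.71e-12) and 0.49 (adjusted p 7.027e-14). SF3A1 had 188 to 206 CPM at 48 hr and 253 to 280 CPM at 96 hr, and SF3A3 had 333 to 341 and 440 to 468 CPM, with no overlap in either gene. In the tri-snRNP the order was led by DDX23, the helicase that helps displace U1 from the 5′ splice site (0.48), PRPF31, which links U4/U6 to U5 (0.47), and SART1, PRPF38A and PRPF4 (0.40 each). SNRNP40 differed by 0.30, EFTUD2 by 0.27, PRPF8 by 0.22, SNRNP200 and PRPF6 by 0.20, PRPF3 by 0.17 and USP39 by 0.11.

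The other genes called higher at 96 hr differed by less. In U2 snRNP, SF3B3 and SF3B4 differed by 0.39, SNRPB2 by 0.32, SF3B2 by 0.22 and DHX15 by 0.21. In the Sm ring, SNRPD3 differed by 0.31, SNRPE by 0.27, SNRPG by 0.17, SNRPF by 0.14 and SNRPB and SNRPD1 by 0.11. The helicases DHX38, DHX16 and DHX8 differed by 0.36, 0.29 and 0.22, SF1, the branch point binding protein, by 0.29, and BUD31 and CRNKL1 by 0.22 and 0.21. In U1 snRNP, LUC7L differed by 0.20, SNRPC, which steadies the pairing with the 5′ splice site, by 0.19, and LUC7L2 by 0.10. The adjusted p of these genes and of the tri-snRNP genes other than DDX23, PRPF31 and SART1 ranged from 3.082e-12 (SF3B3) to 0.02346 (LUC7L2).

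The 3 genes lower at 96 hr were SNRPD2 of the Sm ring, SNRPA, the A protein of U1, and LUC7L3, a U1-associated protein that affects 5′ splice site choice. SNRPD2 had 137, 138, 138 and 142 CPM at 48 hr and 112, 115, 117 and 125 CPM at 96 hr, without overlap, at a log2 difference of -0.18 (adjusted p 2.518e-04). SNRPA differed by -0.14 (adjusted p 0.007643) and LUC7L3 by -0.10 (adjusted p 0.005311). Neither call was firm: SNRPA missed the threshold with DESeq2 (adjusted p 0.0512), and LUC7L3 missed it without the N-short knockdown library of 48 hr (0.0768) or of 96 hr (0.0825). USP39, called higher by a small amount, was lost without either of these libraries (0.0775 and 0.0734). LUC7L2 was lost without either of them (0.0767 and 0.0725), without the N-long knockdown library of 48 hr (0.0848) or of 96 hr (0.0759), and with DESeq2 (0.0947). The fitted values are scaled by TMM, which placed them a median of 0.059 above the log2 ratio of mean CPM, so differences smaller than that can carry the other sign in CPM. By mean CPM 37 of 48 genes were higher at 96 hr, and by the fit 41.

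Each time point of 48 and 96 hr is a single library set, so time and set cannot be told apart. The 48 hr and 96 hr libraries share a prefix in the library names the labels give, while the 2 sets of 24 hr carry different prefixes, so the comparison of the 24 hr sets holds a difference in library series that the other does not. In the comparison of the 24 hr sets, added after the data were seen, 24 of 48 genes passed between the replicate 1 and replicate 2 sets, 17 higher and 7 lower in the replicate 1 set, against a background of 34.4% (17.8% higher and 16.6% lower). U2AF2 again led, with 323, 337 and 339 CPM in the replicate 1 set and 209, 222 and 228 CPM in the replicate 2 set, a log2 difference of 0.60 (SE 0.04, adjusted p 2.559e-12). The replicate 1 set lay above the 96 hr range of this gene and the replicate 2 set between the 48 hr and 96 hr ranges. PRPF19 differed by 0.31, SF1 by 0.33 and SNRPB by 0.30 in the same direction. The 7 lower in the replicate 1 set were LUC7L3 (-0.26), SF3B6 (-0.24), U2AF1 (-0.21), SNRPA1 (-0.18), SF3B1 (-0.16), SNRPF (-0.13) and SNRPD1 (-0.12). Of the 36 genes higher at 96 hr, 15 were also higher in the replicate 1 set, 2 were lower and 19 did not pass. This overlap was not counted over all genes, so it cannot show whether core genes differ in it from genes in general. Marker sums differed between the sets as well. The sum of the pluripotency markers was 4094 to 4306 CPM at 48 hr, 4378 to 5235 at 96 hr, 4184 to 4397 in the replicate 1 set and 3445 to 3569 in the replicate 2 set. Nuclear RNA markers summed to 83 to 86.7 CPM at 48 hr and 96.1 to 104 at 96 hr, with 4 of 6 tested genes higher at 96 hr and 1 lower, and cytoplasmic markers to 15780 to 16220 and 14350 to 15010 CPM, with 2 of 7 higher and 4 lower. In the replicate 1 and replicate 2 sets of 24 hr the nuclear sums were 83.1 to 84.8 and 74.9 to 81.1 CPM and the cytoplasmic sums 15810 to 16690 and 14810 to 15120 CPM. The part of these markers in the differences was not tested.

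**Figure D2:**
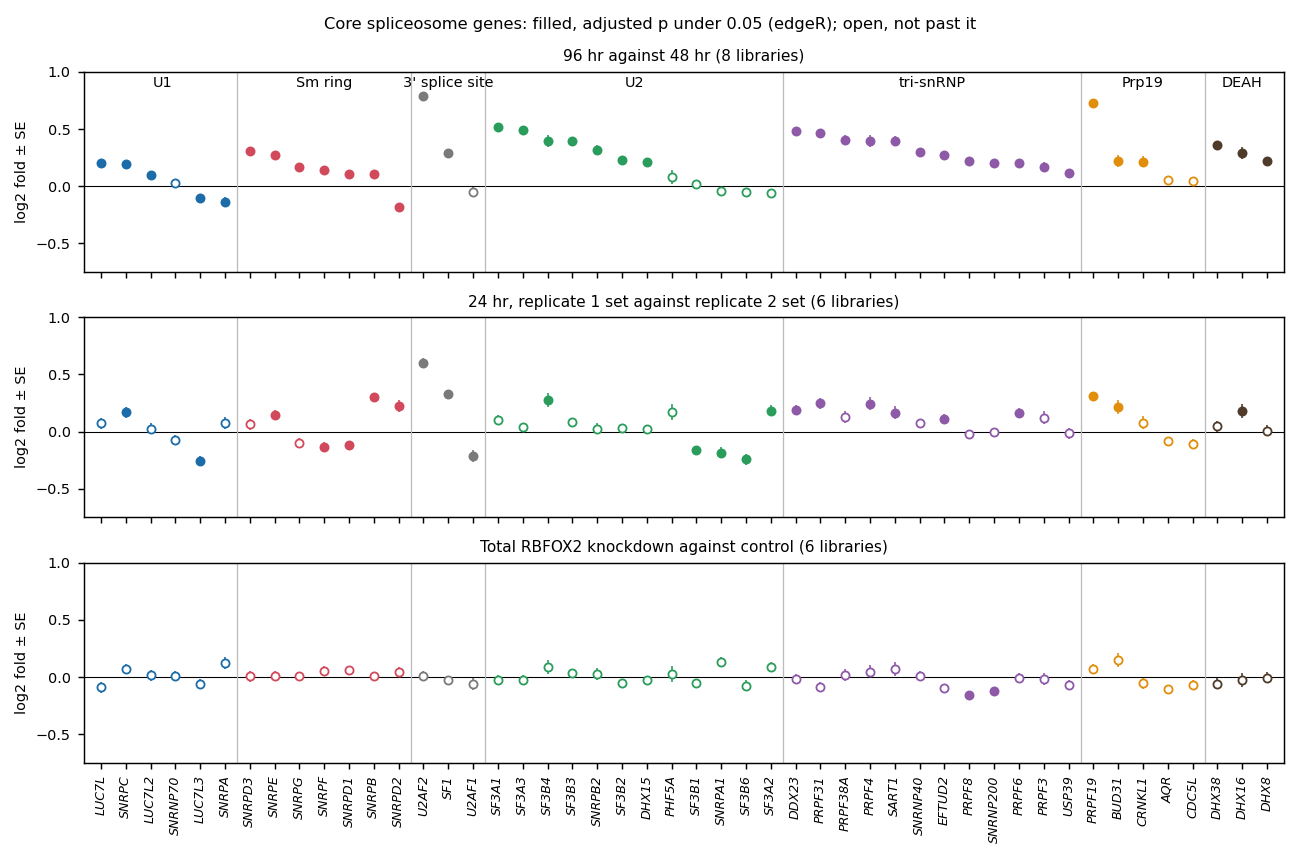
Fitted log2 fold change ± SE of the 48 genes, grouped by complex and ordered by the 96 hr against 48 hr value, in 3 comparisons. Filled points passed an adjusted p of 0.05 and open points did not. The 12 tri-snRNP genes all lie above 0 in the upper panel, U2AF2 is highest in the upper and middle panels (0.79 and 0.60), and in the lower panel PRPF8 and SNRNP200 are filled.

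**Figure D3:**
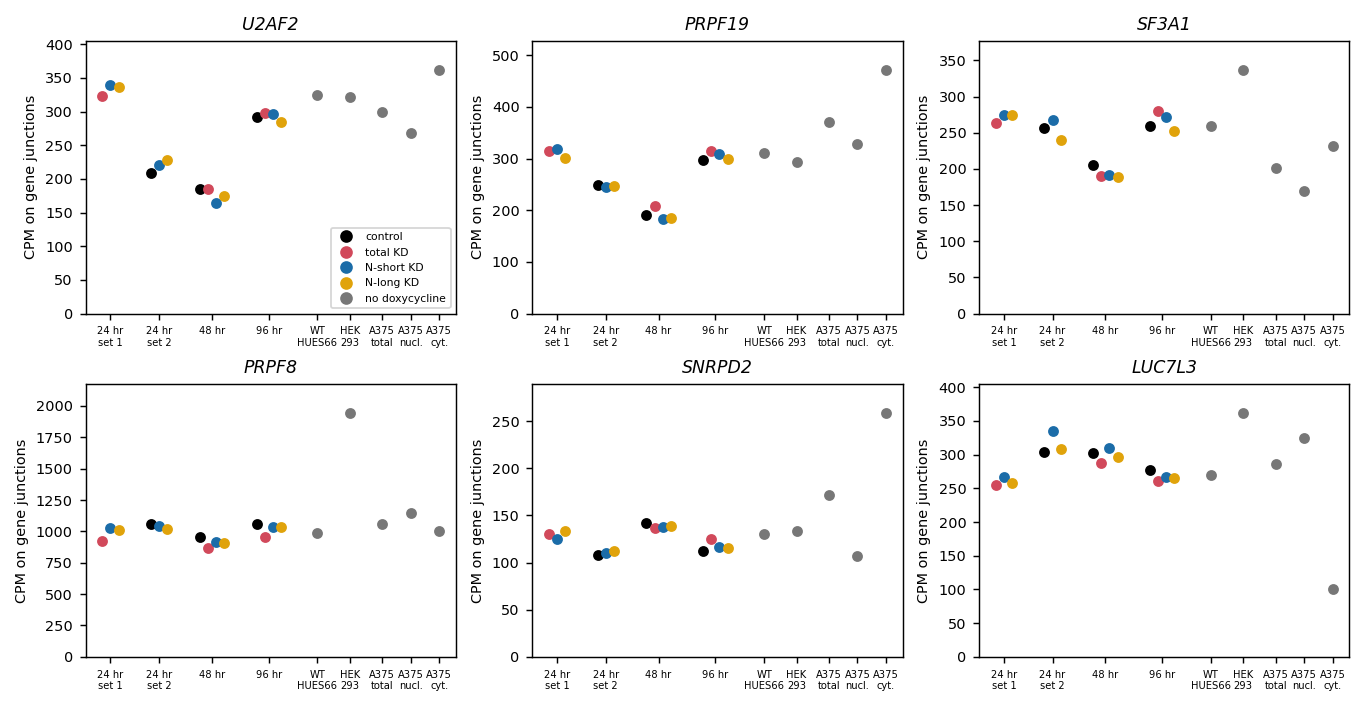
CPM of 6 genes in each of the 19 libraries, with 1 point per library, by set and coloured by knockdown; set 1 and set 2 are the replicate 1 and replicate 2 sets of 24 hr. U2AF2 and PRPF19 are lowest in the 48 hr libraries, PRPF8 reaches 1942 in HEK293, and LUC7L3 is lowest in A375 cytoplasmic RNA.

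The other genes of the pathway, 83 listed and 81 tested, had 53 genes higher and 11 lower at 96 hr than at 48 hr (65.4% and 13.6%, against 29.5% and 30.1% of all genes) and a median log2 difference of 0.219. All 5 genes of the exon junction complex, which marks spliced junctions, were higher, as were 11 of 15 snRNP assembly genes, with 1 lower. The LSm ring, which caps the end of U6 RNA, had 4 of 7 higher and 2 lower. The minor spliceosome, which removes the rare U12-type introns, had 2 of 9 higher and 4 lower, with a median of -0.17.

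Exon use was compared as inclusion, the percentage of a cassette exon's reads that support inclusion rather than skipping, with the 2 inclusion junctions averaged. Of the 80 cassette exons, 17 in 9 genes had enough reads in both forms to test in the knockdown comparisons, and 0 passed in any of them (edgeR). The backgrounds over all 6471 tested exons were 1.36% for total knockdown, 0.0155% for N-short knockdown, 0.603% for N-long knockdown and 0.433% for N-long against N-short. In total knockdown 1 exon had an unadjusted p under 0.05, the SF3B3 exon of 29 nt, from the gene of a scaffold protein of SF3b. Its inclusion was 6.0%, 6.95% and 9.47% in the controls and 4.05%, 4.37% and 5.71% in total knockdown, a log2 odds difference of -0.69 (SE 0.31, adjusted p 0.5927). The knockdown values all lay below the control values, but the difference did not pass. The next in total knockdown were the SNRPG exon of 23 nt (0.38, adjusted p 0.701) and the DHX8 exon of 558 nt (-2.74, adjusted p 0.8518).

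In N-long knockdown the SNRPA1 exon of 80 nt had 97.0% to 100% inclusion, against 96.2% to 98.4% in the controls and 96.4% to 98.1% in N-short knockdown. Its log2 odds were 0.98 above control (SE 0.47, adjusted p 0.9049) and 1.07 above N-short knockdown (SE 0.43, adjusted p 0.7951), so neither passed. The SNRPG exon of 23 nt was at 0.38 (adjusted p 0.9049) in N-long knockdown. In N-short knockdown the smallest p values belonged to the SF3B3 exon (-0.55), the DHX8 exon of 558 nt (-3.45) and the DHX8 exon of 86 nt (1.11), each with an adjusted p of 1.0. Only 2 mutually exclusive pairs had enough reads, both in LUC7L3, and 0 of 2 passed in every knockdown comparison, against 2.07% of 242 pairs in total knockdown and 0.0% in the others. The smallest adjusted p of either pair in a knockdown was 0.9302. In the 9 tables of splicing events that the authors deposited, 1 for each knockdown at each time, 1713 events lay in core spliceosome genes. The authors' deposited table values put 0 of these events under an FDR of 0.05, against 0.0383% of all 443906 events. They put 33 under an unadjusted p of 0.05, for which no share over all events was taken. The smallest FDR of such an event in the authors' deposited tables was 0.373.

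Between the 48 hr and 96 hr sets 3 of 15 tested exons passed, all lower at 96 hr, against a background of 7.43% lower and 15.3% in either direction. They lie in LUC7L and LUC7L3, which hold 8 of the 15 tested exons. LUC7L and LUC7L3 are related genes whose proteins bind U1 snRNP. The LUC7L exon of 64 nt (chr16:208601-208664), which lies outside the coding sequence of the coding transcripts that hold it, had 13.8%, 17.6%, 19.9% and 22.0% inclusion at 48 hr and 2.00%, 2.42%, 3.86% and 6.21% at 96 hr. The sets did not overlap, and the log2 odds differed by -2.57 (SE 0.28, adjusted p 6.455e-08). In LUC7L3 the exon of 193 nt, whose stop codon is printed above, had 11.0%, 14.1%, 15.1% and 15.5% at 48 hr and 4.98%, 5.86%, 6.31% and 8.72% at 96 hr, again without overlap, at -1.20 (SE 0.19, adjusted p 3.913e-05). For the 66 nt exon of LUC7L3 the values were 25.4%, 27.9%, 35.3% and 40.3% at 48 hr and 9.52%, 11.4%, 13.0% and 21.1% at 96 hr, at -1.51 (SE 0.39, adjusted p 0.007776). It missed the threshold without the N-short knockdown library of 48 hr (adjusted p 0.0782) or of 96 hr (0.0747). With limma on the log ratios none of the 3 passed (adjusted p 0.0509, 0.0776 and 0.0755 in the order above).

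The same exons set the 24 hr sets apart in part. The LUC7L3 exon of 193 nt had 7.30% to 7.82% in the replicate 1 set and 15.4% to 21.1% in the replicate 2 set, a log2 odds difference of -1.45 (SE 0.23, adjusted p 6.35e-05), and was the 1 exon of 17 to pass there, against a background of 0.479% lower and 1.17% in either direction. It did not pass with limma (adjusted p 0.151). The 66 nt exon of that gene had 14.3% to 19% and 28.6% to 51.9%, without overlap, but did not pass (adjusted p 0.1937). The LUC7L exon of 64 nt had 5.43% to 8.91% and 7.75% to 11.9%, which overlapped. LUC7L3 gene reads were lower in the 2 sets where its 193 nt exon was used less, 255 to 267 CPM in the replicate 1 set and 261 to 278 CPM at 96 hr, than in the others, 303 to 334.5 CPM in the replicate 2 set and 287 to 310 CPM at 48 hr. Among exons that did not pass, the SF1 exon of 160 nt was at 0.56 (adjusted p 0.1048) and the SF3B3 exon at -0.59 (adjusted p 0.1393) at 96 hr. The mutually exclusive LUC7L3 exons of 194 and 106 nt were at 0.47 (adjusted p 0.2391), against a background of 7.17% of 237 pairs, and 0 of 2 pairs passed between the 24 hr sets, against 1.65%.

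Of the 80 cassette exons, 17 in 12 genes occur only in transcripts marked for nonsense-mediated decay, and 7 of these had enough reads to test: 4 in LUC7L3 (193, 63, 126 and 121 nt), and those of 160 nt in SF1, 29 nt in SF3B3 and 558 nt in DHX8. The 126 and 121 nt versions in LUC7L3 end at the same base and share reads. They were included at 3.98% to 7.21% and 2.69% to 5.96% in the doxycycline libraries. The 558 nt exon of DHX8 was included at 85.7% to 100%, so this annotation does not mark a rare exon there. Others were barely used in HUES66: the SNRNP70 exon of 72 nt had at most 0.611% in any doxycycline library and the SNRPB exon of 124 nt 0.125% to 0.825%.

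**Figure D4:**
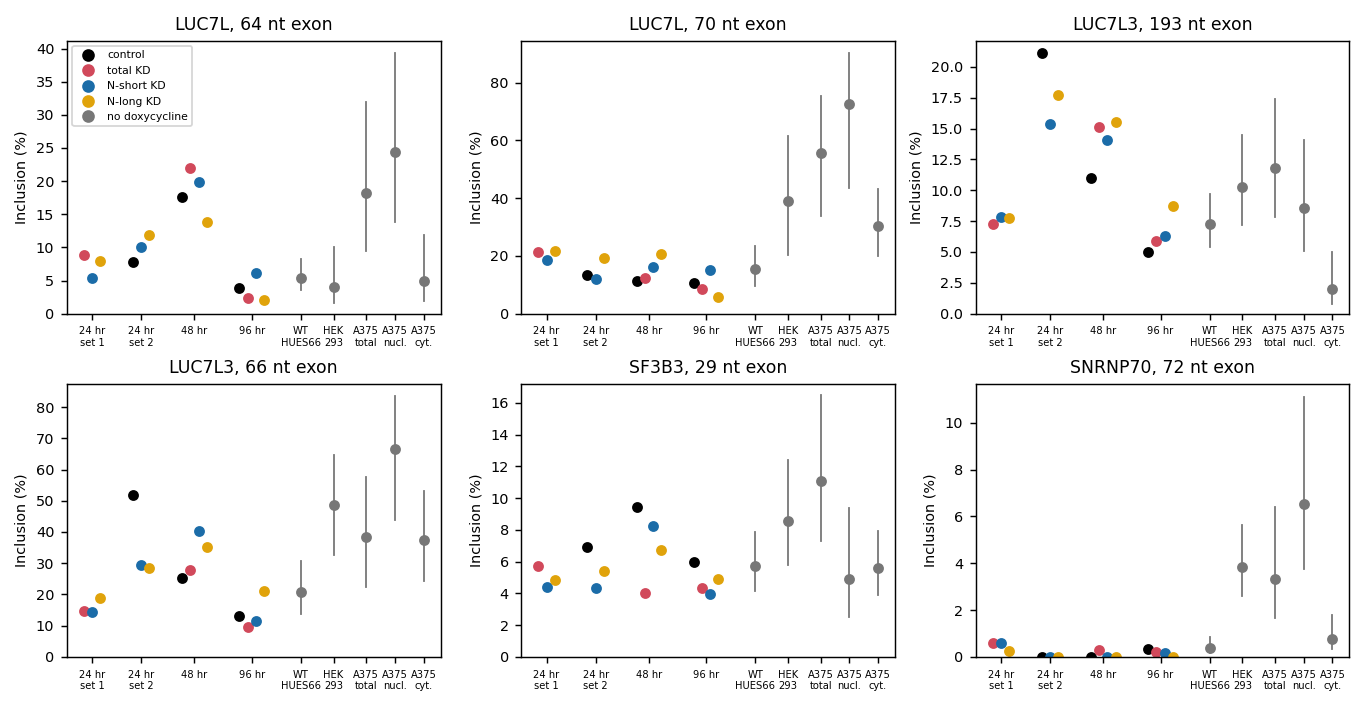
Inclusion (%) of 6 cassette exons in each of the 19 libraries, by set and coloured by knockdown, with Wilson 95% intervals (counting error) for the 5 libraries without doxycycline. The LUC7L exon of 64 nt and the LUC7L3 exons of 193 and 66 nt are lower in the 96 hr than in the 48 hr libraries, and the SNRNP70 exon of 72 nt is above 3% in HEK293, A375 total and A375 nuclear RNA. The LUC7L exon of 70 nt rests on 11 to 56 reads in the A375 and HEK293 libraries.

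Cell lines were compared with 1 library each, so no test was possible. A375, HEK293 and WT HUES66 also carry different prefixes in their library names, so line and library series cannot be told apart in any ratio or exon difference between them. Ratios of CPM are given with exact 95% intervals for the ratio of 2 counts, which cover counting error only. Few core spliceosome genes differed by more than 2-fold. In A375 against WT HUES66, 0 of 47 genes were past 2-fold higher and 5 lower, against 22.6% and 22.5% of 14025 genes. The 5 were PHF5A, a small SF3b subunit that lines the branch point pocket (19.2 against 47.1 CPM, ratio 0.409, interval 0.343 to 0.481), SNRPF (0.439), SNRPA1 (0.460), SNRPD3 (0.479) and LUC7L (0.486). The highest were PRPF4 (156 against 82.0 CPM, 1.9), BUD31 (1.74), DHX8 (1.63), SNRPD2 (1.32) and DHX38 (1.29). The median over the 47 was 0.925.

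HEK293 against WT HUES66 had 2 of 48 genes past 2-fold higher and 0 lower, against 20.2% and 20.0% of 13799 genes. DHX16 had 182 against 67.2 CPM (2.7, interval 2.53 to 2.89) and CDC5L, a core subunit of the Prp19 complex, 428.5 against 178 CPM (2.40, interval 2.305 to 2.507). In the 24 hr replicate 2 set of HUES66, with the same prefix as HEK293, DHX16 had 59.3 to 63.1 CPM and CDC5L 187.6 to 189.4 CPM. PRPF8 had 1942 against 990 CPM (1.96), EFTUD2 was at 1.72 and DHX8 at 1.56. The lowest were AQR, an intron-binding helicase (0.554), DHX15, which takes spliceosomes apart (0.566), SNRPF (0.631), LUC7L (0.687) and SNRPA (0.769). In A375 against HEK293, 0 of 47 were past 2-fold higher and 8 lower, against 19.2% and 18.9% of 12800 genes. CDC5L was lowest (100.1 against 428.5 CPM, 0.234), followed by SNRPD3 (0.381), SNRPC (0.385), SNRPA1 (0.417) and DHX16 (0.442), and the highest were PRPF4 (1.52), AQR (1.44), BUD31 (1.39), SF3B4 (1.39) and SNRPE (1.33). With TMM factors this count of 8 was 5. The median ratio of all genes was 0.931 in this pair and 1.08 in HEK293 against WT HUES66. SNRPF and LUC7L were among the 5 lowest genes in both A375 and HEK293 against WT HUES66, which these comparisons share as the reference.

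Exon inclusion differed between the lines at a few sites, given with Wilson 95% intervals. The SNRPA1 exon of 80 nt was included at 97.8% in WT HUES66 (96.4% to 98.7%, 638 reads), 90.2% in HEK293 (86.0% to 93.2%) and 89.0% in A375 (80.4% to 94.1%). The intervals of HEK293 and A375 lay below that of WT HUES66, and all 14 doxycycline libraries were at 96.2% or more. The LUC7L3 exon of 66 nt was at 20.9% in WT HUES66 (13.7% to 30.7%), 48.5% in HEK293 (32.5% to 64.8%) and 38.5% in A375 (22.4% to 57.5%). Only the HEK293 interval cleared that of WT HUES66, and the doxycycline libraries alone ranged from 9.52% to 51.9%. The LUC7L exon of 64 nt was at 18.2% in A375 (9.51% to 32.0%), 5.41% in WT HUES66 (3.53% to 8.20%) and 4.08% in HEK293 (1.60% to 10.0%). Its A375 value lay inside the 48 hr range of HUES66.

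The SNRPG exon of 23 nt, whose difference equals the fifth largest in HEK293 against WT HUES66 as rounded, was at 94.4% in WT HUES66 (93.2% to 95.4%), 88.9% in HEK293 (85.6% to 91.5%) and 90.1% in A375 (86.6% to 92.8%), with both intervals below that of WT HUES66. For LUC7L3 the exon of 63 nt was at 43.5% in A375 (25.6% to 63.2%, 23 reads), 24.5% in WT HUES66 and 18.5% in HEK293. The PRPF3 exon of 96 nt was at 26.1% in A375 (17.2% to 37.5%), 15.8% in WT HUES66 (11.4% to 21.4%) and 12.1% in HEK293 (7.07% to 20.0%). The SF1 exon of 205 nt was at 53.8% in WT HUES66 (48.1% to 59.5%), 48.3% in A375 and 40.6% in HEK293 (29.8% to 52.4%), and the DHX8 exon of 86 nt at 97.6% in A375 (91.7% to 99.3%), 95.1% in WT HUES66 and 89.6% in HEK293 (81.9% to 94.2%). The SNRNP70 exon of 72 nt, whose early stop codon is printed above, was small in all lines but not alike: 0.359% in WT HUES66 (0.153% to 0.838%), 3.31% in A375 (1.68% to 6.39%) and 3.83% in HEK293 (2.59% to 5.63%).

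A375 nuclear and cytoplasmic RNA were also 1 library each. Nuclear RNA markers summed to 115 CPM in the nuclear and 59.3 CPM in the cytoplasmic library, and cytoplasmic markers to 11450 and 26360 CPM. The nuclear markers did not all go 1 way. Relative to library depth, FTX, PVT1, TUG1 and LINC-PINT were higher in the nuclear library. CRNDE went the other way, with 31 nuclear and 513 cytoplasmic reads in libraries of 6499183 and 22344622 junction reads. MIAT and MEG3 had 0 reads in both. CPM compares the makeup of each fraction and not the amount of RNA in it. Of 47 genes, 5 were past 2-fold higher in the nuclear library and 9 lower, against 23.2% and 18.5% of 12929 genes, with a median ratio of 0.760 against 0.943 over all genes. The Sm ring lay on the cytoplasmic side as a group: 7 of 7 genes were below 1, from 0.365 (SNRPG) to 0.507, and 5 were past 2-fold. SNRPG had 139 against 381 CPM (0.365, interval 0.340 to 0.391), PHF5A 0.373, SNRPE 0.408, SNRPD2 0.415 and SNRPF 0.425. At the other end LUC7L3 had 324 against 101 CPM (3.21, interval 3.02 to 3.41), AQR 284 against 132 CPM (2.14), SF3B1, the U2 protein that clamps the branch helix, 602 against 282 CPM (2.13), PRPF3 2.04 and CDC5L 2.03. Of the 2 large U5 subunits, PRPF8 had 1149 against 1005 CPM and SNRNP200 855 against 617 CPM (1.39, interval 1.34 to 1.43).

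The Sm-like LSm genes, outside the core list, had 6 of 7 genes past 2-fold lower in the nuclear library and a median of 0.365. The ratio was lower for core genes with few introns. Spearman's rho between the number of introns and the ratio was 0.733 over the 47 genes and 0.416 over 12883 genes, across genes of the same 2 libraries, which are not independent replicates. Genes with few introns here also encode small proteins with short messages, and these properties cannot be told apart.

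**Figure D5:**
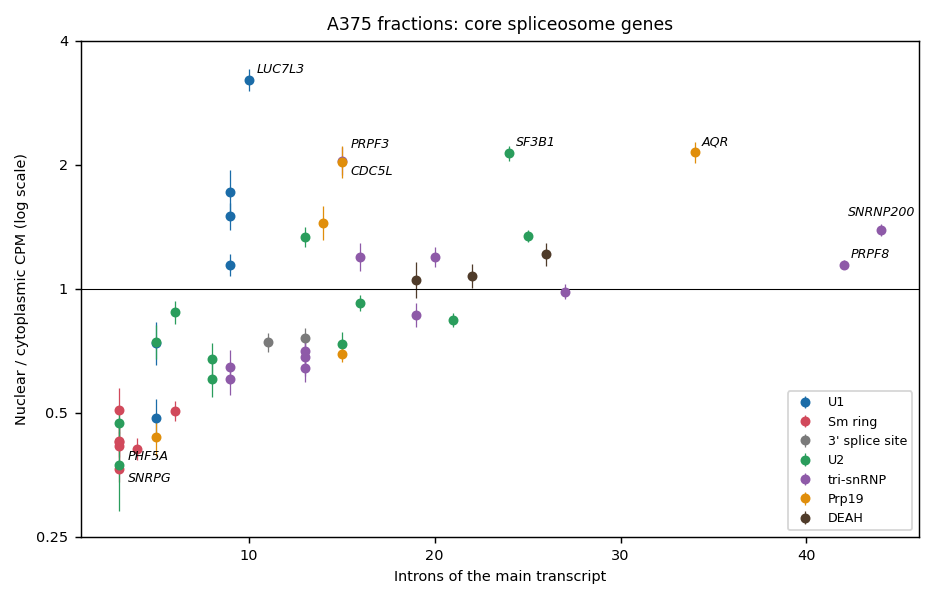
Ratio of nuclear to cytoplasmic CPM in A375 (log scale) against the number of introns of the main transcript for 47 genes, coloured by complex, with exact 95% intervals for the ratio of 2 counts. The Sm ring genes lie between 0.365 and 0.507 and LUC7L3 at 3.21.

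Among the 5 exons that differed most between the fractions were those of LUC7L3 and SNRNP70 with early stop codons, and both were higher in the nuclear library. The LUC7L3 exon of 193 nt was included at 8.55% in nuclear RNA (5.07% to 14.1%, 152 reads) and 1.98% in cytoplasmic RNA (0.773% to 4.98%, 202 reads), and the SNRNP70 exon of 72 nt at 6.52% (3.77% to 11.1%) and 0.774% (0.331% to 1.80%), without overlap of the intervals in either case. Its 60 nt version, which shares reads with it, was at 7.03% and 1.54%. The largest differences were at exons outside coding sequence: the LUC7L exon of 64 nt at 24.4% (13.8% to 39.3%) and 4.88% (1.91% to 11.9%), and the PRPF3 exon of 96 nt at 24.1% (16.2% to 34.3%) and 7.14% (3.66% to 13.5%). The USP39 exon of 86 nt, from the gene of a tri-snRNP protein, was at 8.51% (3.36% to 19.9%) and 1.50% (0.586% to 3.80%), with overlapping intervals. Other exons annotated only for decay did not share this direction: the SF1 exon of 160 nt was at 4.58% in nuclear (2.12% to 9.63%) and 7.58% in cytoplasmic RNA (5.68% to 10.1%), the SF3B3 exon of 29 nt at 4.91% and 5.57%, and the BUD31 exon of 234 nt at 0.0% of 44 reads and 1.42% of 424, all with overlapping intervals.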

How the data were processed

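Each library's file holds counts of reads per splice junction, which the authors deposited without normalisation. The submitters' processing notes list STAR 2.7.1, SAMtools 1.9 and hg38. How junctions were called and filtered is not given in the sources used here. Their 9 splicing tables give p-values, FDR values and inclusion differences that the authors computed, and 69 columns of per-library values in them were not used here. Junction counts were assigned to GENCODE 29 introns of a single gene, ignoring transcripts tagged as read-through between genes. Cassette exons of at most 1000 nt and mutually exclusive pairs were defined from annotated introns and tested where each comparison's libraries had a mean of at least 20 reads and an inclusion of 2% to 98%.

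Genes were tested with edgeR 4.0.16 (quasi-likelihood, TMM) in R 4.3.3 and adjusted by Benjamini-Hochberg over all genes or exons tested, at 0.05. The 14 doxycycline libraries were fitted with terms for library set and knockdown, so the set serves as the block. Set labels come from the time and replicate number in the titles. The 8 libraries of 48 and 96 hr were fitted with terms for knockdown and time. Exons were tested in edgeR as the interaction of read class with condition. Comparisons of 1 library with 1 used ratios of CPM with 0.5 reads added, called past 2-fold with at least 20 reads in both libraries together. The tests were also run on simulated reads. These held no differences between library sets, so this check does not cover such differences. Alternatives were DESeq2 1.42.0, limma 3.58.1, other scalings, filters and controls, and leaving out each library.

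The members and lists were chosen with earlier results of these data known. Named are the 5 highest and 5 lowest genes per intron, every gene or exon past the threshold or the 3 with the smallest p, and the 5 genes or exons at each extreme between lines and fractions. Intervals cover counting error only, since reads carry no molecular identifiers.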

Additional observations from a re-analysis of the deposited data

How the results depend on the processing

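Counts of core genes and exons past the threshold were computed under 76 alternatives other than leaving out a library, of which 69 stayed within 1.5 times the reported count, and under 84 settings that left out a library, of which 80 did. A count of 0 that stayed at 0 was taken as unchanged, which covers every isoform knockdown comparison and exons in total knockdown. The 4 leave-one-out settings that moved were all for genes in total knockdown, out of 6 there. Without the replicate block (a term for time in place of the set) 0 core genes passed in total knockdown, in place of 2. Leaving out a library gave 1 to 3 in that comparison, 36 to 39 genes and 2 to 3 exons for 96 hr against 48 hr, 19 to 28 genes and 1 exon between the 24 hr sets, and 0 for every isoform knockdown comparison and for exons in total knockdown. With limma 0 exons passed for 96 hr against 48 hr, in place of 3, and 0 between the 24 hr sets, in place of 1. Over all exons for 96 hr against 48 hr limma passed 45 and edgeR 987. At 1.5-fold the count past the fold was 16 in A375 against WT HUES66, 8 in HEK293 against WT HUES66 and 15 in A375 against HEK293, beside 63.8%, 59.7% and 58.1% of all genes. Among genes with at least 100 reads, the counts of core genes past 2-fold in these pairs were unchanged. The shares over all genes were then 39.2%, 34.0% and 31.8%, in place of 45.1%, 40.1% and 38.1%. TMM factors gave 5 in A375 against HEK293 and moved the median ratio of all genes from 0.931 to 1.00 there and from 1.08 to 0.977 in HEK293 against WT HUES66. With limma the LUC7L3 pair of 194 and 106 nt exons turned from 0.03 to -0.00128 in N-short knockdown and from -0.0015 to 0.00866 between the isoform knockdowns, none past the threshold. The cause of these changes was not tested. Of 396 values of named genes and exons under the other alternatives, 384 kept direction and side of the threshold, as did 634 of 666 with a library left out. The alternatives for the 24 hr sets were chosen after seeing the data. Depth limits the exons, many of which had under 100 reads in a library.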

Other observations

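Some junctions in core spliceosome genes are not in GENCODE 29. Of those inside the 48 genes, 4 held at least 200 reads over the 19 libraries, a set chosen after the values were seen: 1 each in SNRPD1, U2AF2, SNRPD3 and SF1. The SNRPD1 junction (chr18:21622802-21623870, 1040 reads) starts at an annotated 5′ splice site and ends at an unannotated site. Per 1000 reads on the gene it had 34.5 to 45.1 in the 48 hr libraries, 8.70 to 13.9 in the 96 hr libraries, 12.4 to 15.5 in the replicate 1 set of 24 hr and 30.4 to 36.9 in the replicate 2 set. The 48 hr and replicate 2 libraries lay above all libraries of the other sets, and WT HUES66 had 14.4, HEK293 9.61 and A375 9.62. No test was run on it.

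The U2AF2 junction, with 329 reads, had 2.7 to 9.49 per 1000 gene reads at 48 hr and 2.18 to 5.13 at 96 hr, which overlapped, and 11.3 in HEK293. The SNRPD3 junction, with 255 reads, joins annotated sites that no annotated transcript joins, and had 6.26 to 14.7 per 1000 gene reads across the doxycycline sets. The SF1 junction had 212 reads.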
